A study of Mus musculus with 4 samples.

Results

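Neurog1, Neurog2, Neurod1, Neurod4, Phox2a and Pou4f1 are transcription factors of neurogenesis and of sensory neurons. They are described here in single cells of the Tbx1 lineage of mouse embryos at E9.5. Each of the 6 symbols matched 1 row of the 32285 genes in the deposited count tables. No member was used to form or to name a group of cells.

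GFP-positive cells were sorted from the microdissected pharyngeal region and heart of embryos that the labels give as outbred SwissWebster, while the study's methods describe mice backcrossed to Swiss Webster and kept on a mixed background with C57BL/6. The control libraries (cHet) came from embryos of the genotype Tbx1Cre/+; Kmt2d F/+; GFP F/+, and the conditional knockout libraries (cKO) from Tbx1Cre/+; Kmt2d F/F; GFP F/+ embryos. Cre is inserted into Tbx1 itself, so that every embryo of both groups also lacks 1 functional copy of Tbx1, and Cre acts where Tbx1 is or was expressed. Each genotype had 2 libraries: Rep1 pooled 4 embryos and Rep2 pooled 3 embryos, with an older 10x Genomics 3′ kit for Rep1 and the GEM-X kit for Rep2. Cells carry no mark of their embryo, so the library is the replicate (n = 2 per genotype). Differences between Rep1 and Rep2 are taken out of the main fits. Their p-values rest on how the genotype difference varies over the 2 replicates and on spread borrowed from other genes. The somite counts that the study gives for the cHet pools start lower than those of the cKO pools, and a difference of stage cannot be told apart from one of genotype.

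After filtering, 5869 cells (cHet) and 6291 cells (cKO) were kept from Rep1 and 9350 and 11938 from Rep2, with median depths between 17240.5 and 22972 unique molecular identifiers (UMIs, each standing for 1 captured RNA molecule) per cell. Levels are given as counts per 1000000 UMIs of the cells concerned (CPM), and values of 4 libraries always stand in a fixed order, Rep1 before Rep2 and within each the cHet before the cKO library. The table of cHet Rep1 listed 37093 barcodes, of which 6242 had at least 3000 genes, the filter used here, while the others listed 9307 to 16775 barcodes, of which 6668 to 12587 passed. Libraries of the same replicate shared 12 (Rep1) and 41 (Rep2) cell barcodes, and libraries of different replicates shared none. Kmt2d UMIs were counted in both genotypes (20.6, 16.2, 22.4 and 22.6 CPM in neuron-like cells), but a 3′ count does not tell whether the floxed part of the gene was deleted and checks nothing here.

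Neurogenin proteins are basic helix-loop-helix factors that commit progenitors to a neuronal fate, and in cranial placodes they raise the Notch ligand Dll1, through which a committed cell holds back its neighbours. Neurod1 and Neurod4 are related factors that act after the neurogenins, during delamination and differentiation. Phox2a is a homeodomain factor of epibranchial (geniculate, petrosal and nodose) sensory neurons and of autonomic and some cranial motor neurons. Pou4f1 (Brn3a) is a POU homeodomain factor of postmitotic sensory neurons. In the mouse, Neurog2 is the neurogenin best known from epibranchial placodes, and Neurog1 that of the inner ear and of trigeminal neurons.

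On GRCm38, Neurog1 lies at chr13:56250478-56252163 (minus strand, 1 exon), Neurog2 at chr3:127633135-127635631 (plus strand, 2 exons), Neurod1 at chr2:79452521-79456751 (minus strand, 2 exons), Neurod4 at chr10:130268152-130280240 (minus strand, 2 exons), Phox2a at chr7:101818313-101822726 (plus strand, 3 exons) and Pou4f1 at chr14:104461676-104467999 (minus strand, 3 exons). Neurod1 lies inside the gene Cerkl on the same strand, so that UMIs there may be assigned to either. Phox2a overlaps Inppl1 on the other strand. Neurog2 and Pou4f1 are a pair of members whose levels ran in opposite directions across the neurons, as did those of some other members and Pou4f1 (below). The promoters of this pair, the 250 bases before the RefSeq start on GRCm38.p6, are shown for that reason, 5′ to 3′ on the strand of the gene. Capitals mark E-boxes, the motif CANNTG that basic helix-loop-helix factors bind (read on both strands, which for this motif give the same sites).

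Neurog2, chr3:127632886-127633135, plus strand: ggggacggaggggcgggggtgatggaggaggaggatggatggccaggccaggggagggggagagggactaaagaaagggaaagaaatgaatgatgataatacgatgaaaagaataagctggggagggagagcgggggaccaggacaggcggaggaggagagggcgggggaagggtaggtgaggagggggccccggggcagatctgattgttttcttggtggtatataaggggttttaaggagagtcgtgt

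Pou4f1, chr14:104468000-104468249, minus strand: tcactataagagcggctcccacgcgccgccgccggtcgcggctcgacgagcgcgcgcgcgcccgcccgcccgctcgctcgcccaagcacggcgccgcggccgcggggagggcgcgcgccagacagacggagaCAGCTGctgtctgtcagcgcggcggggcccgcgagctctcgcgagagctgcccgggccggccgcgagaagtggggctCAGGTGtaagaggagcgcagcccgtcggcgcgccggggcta

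The Pou4f1 window held 2 E-boxes, CAGCTG at 118 bases and CAGGTG at 41 bases before the start, and the Neurog2 window held none. Of the other members, the Neurod1 window held CATATG, 242 bases before the RefSeq start, and those of Neurog1, Neurod4 and Phox2a held no E-box. The Neurod1 window overlaps the first exon of the GENCODE model from which the gene positions were taken, so that this distance holds for the RefSeq start only. An E-box stood in 66.2% of all 32851 such windows. A match is a description of the letters and not a site.

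Cells were clustered without the members and named from fixed marker lists. This gave 659 neuron-like cells (177, 117, 167 and 198), which made up 3.02%, 1.86%, 1.79% and 1.66% of the libraries, and 593 otic-like cells (99, 90, 132 and 272), which passed 9 of 9 otic epithelium markers, among them Oc90, Hmx2, Hmx3 and Pax2. Besides, 1106 cells were ectoderm-like, 1850 endothelium-like and 15665 stayed unnamed. The neuron-like cells fell into 3 subclusters that each passed 4 of 5 markers of the epibranchial sensory list (434 cells, called epibranchial-like), 1 subcluster that passed 1 of the 5 (108 cells, called non-epibranchial) and 1 subcluster that came mostly from cHet Rep1 (78 of 117 cells). That last one passed 3 of the 5 and was kept apart because 1 library held most of it. It stood at 466, 288, 13.6 and 64.1 CPM in sum of the mesenchyme list (5 genes), against 159, 103, 18.5 and 27.8 in epibranchial-like and 294, 174, 97.3 and 50.7 in non-epibranchial cells, so it was the highest in 3 of 4 libraries and the lowest in cHet Rep2. The members' genotype differences in neuron-like cells are given with and without it. The trigeminal and otic sensory list (5 genes) did not separate the kinds of neuron, since 3 or 4 of its markers passed in each epibranchial-like subcluster and 4 in the non-epibranchial one. A further 293 cells, 278 of them from Rep1, lay in the same clusters but passed no more than 4 of 11 neuron markers or at least 3 of 6 neural tube markers and were set aside. Hes5 and Pax3 were among the leading genes of most of them. They held 138 Neurog1 UMIs and 202 Neurog2 UMIs, in cKO Rep1 24.0% and 24.5% of that library's total of each gene.

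All 6 members had their highest mean level in neuron-like cells among the 11 named cell types. Since the members were chosen as neuronal genes, this order is a description. For Neurog2 alone did the range over libraries overlap with that of the next type, the ectoderm-like cells. Within each library Neurog2 was still higher in the neuron-like cells. How many of all genes part their highest type from the next without overlap was not counted. The share of each gene's UMIs that lay in neuron-like cells was 92.9% for Neurod1, 91.7% for Neurod4, 79.6% for Phox2a, 79.4% for Pou4f1, 63.1% for Neurog1 and 59.6% for Neurog2. Ectoderm-like cells held 34.1% of the Neurog2 UMIs and 1327 of the 8838 Phox2a UMIs.

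Neurog1 was counted at 52.8, 50.9, 215 and 206 CPM in neuron-like cells, and Neurog2 at 109.6, 71.6, 332 and 246 CPM. The downstream Neurod1 was counted at 466, 706, 985 and 1160.5 CPM, and Neurod4 at 122, 156, 364 and 316 CPM. Phox2a stood at 213, 216, 783 and 571 CPM and Pou4f1 at 36.7, 56.8, 75.1 and 101 CPM. Every member was higher in both Rep2 libraries than in both Rep1 libraries. So was the sum of the 11 neuron markers, at 1711, 2585, 5428 and 5814.5 CPM, while Tbx1 was lower, at 52.6, 43.6, 19.6 and 17.1 CPM. How many of all genes differed this way between the replicates was not counted. Kit, number of embryos and replicate changed together, and their parts in this difference cannot be told apart. Endothelium-like cells, which should lack all 6 genes, were used for comparison, and the source of their UMIs was not tested. Between 2 and 7 of 1850 such cells had a UMI of any one member (0.108% to 0.378%), at a median depth of 19640 UMIs, against 21277 in neuron-like cells. Other non-neuronal types lay on both sides. Neurog1 was found in 79 of 3354 branchiomeric muscle-like (BrM-like) and in 0 of 658 cardiac muscle-like cells. Phox2a was found in 41 of 1648 cells like anterior second heart field and in 4 of 1192 like posterior second heart field.

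**Figure D1:**
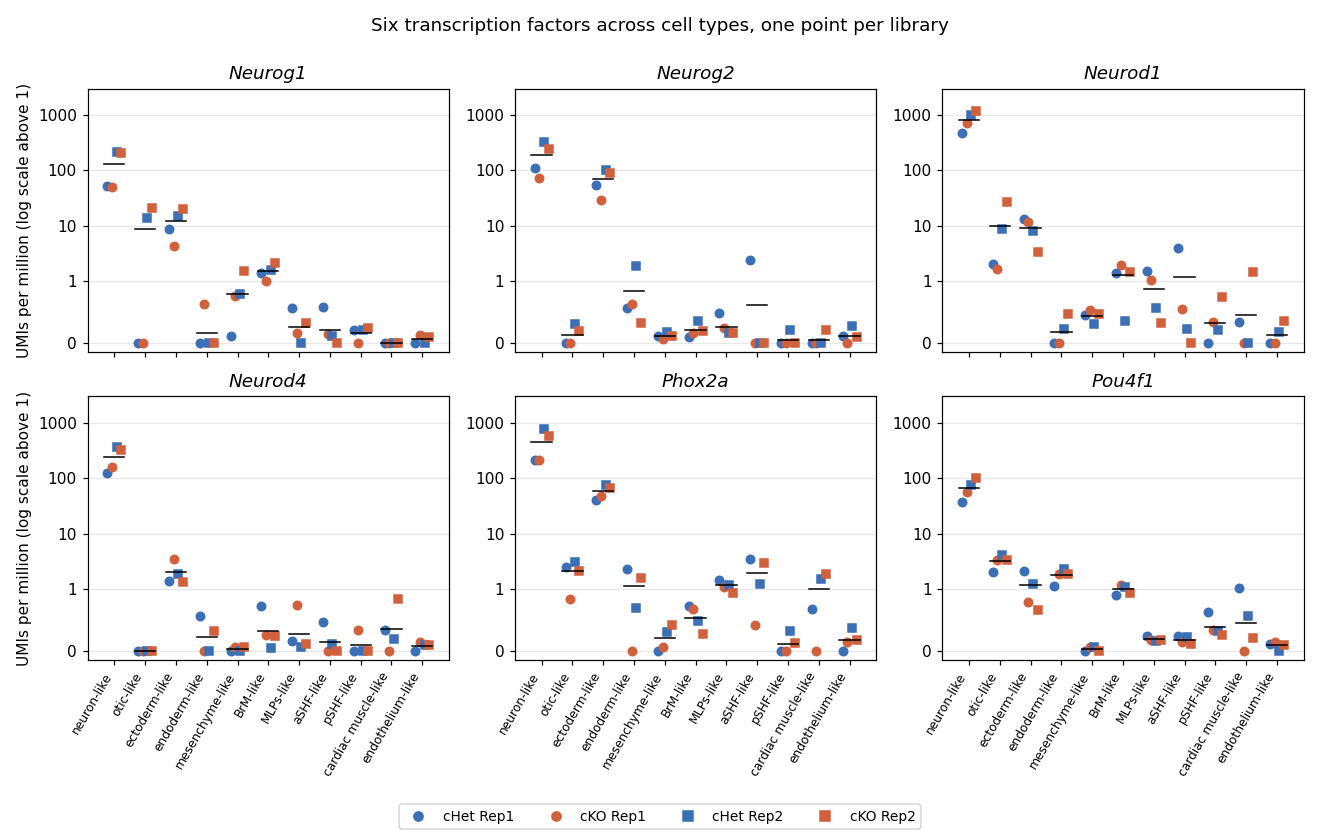
CPM of the 6 genes (vertical axes, logarithmic above 1) in the 11 named cell types (horizontal axes), with 1 point per library, circles for Rep1, squares for Rep2, blue for cHet, orange for cKO and a bar at the mean. Neuron-like cells stand highest for every gene, and ectoderm-like cells come next by mean for Neurog1, Neurog2, Neurod4 and Phox2a. No Neurod4 UMI was found in otic-like cells.

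Within the neurons, Neurog2 and Phox2a set the epibranchial-like cells apart from the non-epibranchial cells. Neurog2 stood at 218, 128, 402 and 315 CPM in the former, while the latter held a single Neurog2 UMI in 108 cells, from cHet Rep2. Phox2a stood at 401, 354, 950.4 and 745 CPM against 15.5, 4.65, 0 and 1.69, and Neurod4 at 217, 254, 438 and 409 against 10.9, 23.3, 27.5 and 16.9 CPM. The 2 sets of libraries did not overlap for any of these genes. The kinds of neuron were formed by clustering, and how many of all genes differ without overlap was not counted, here or for Pou4f1 below. Neurog1 was counted in both kinds of neuron, at 88, 67.1, 237 and 215 CPM in epibranchial-like and 51.2, 42.8, 91.8 and 108 CPM in non-epibranchial cells. The ranges over libraries overlapped, but within each library Neurog1 was higher in the epibranchial-like cells.

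Pou4f1 ran the other way, with 38.7, 40.0, 65.2 and 79.6 CPM in epibranchial-like cells and 109, 113, 141 and 252 CPM in non-epibranchial cells, again without overlap. Neurod1 was high in both, at 636, 745, 931 and 1031 and 837, 906, 1309.5 and 1562 CPM, and was found in 429 of 434 and 107 of 108 cells. The non-epibranchial cells also carried Fgf10, a growth factor of the inner ear and of other tissues, at 172, 174, 476 and 915 CPM, against 20.7, 21.3, 4.01 and 11 CPM in the epibranchial-like cells.

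The 3 epibranchial-like subclusters differed in epithelial and neuronal genes, and the levels of several members differed with them. In the Epcam-high subcluster (181 cells), Epcam, an adhesion protein of epithelia, stood at 283, 224, 318 and 418 CPM and Stmn2, a microtubule regulator of growing axons, at 5.51, 52.7, 28 and 63.3 CPM. In the Stmn2-high subcluster (66 cells), Epcam stood at 10.6, 18, 6.09 and 7.22 and Stmn2 at 2109, 1989.6, 1921 and 2612 CPM, and the intermediate subcluster (187 cells) lay between them for both genes. Clusters were formed on these genes, so that order and the members' levels along it are a description.

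Neurog2 was lower at each step of that order, from 335, 321, 756 and 869 CPM in Epcam-high cells to 74, 43.8, 200.003 and 81.1 in intermediate and 5.3, 13.5, 18.3 and 24.5 CPM in Stmn2-high cells, with no overlap between one step and the next. Pou4f1 ran upwards, from 9.18, 21.4, 22.6 and 29.5 to 72.4, 42.9, 89.2 and 89.5 and 101, 76.7, 113 and 127 CPM. It was higher at each step in 4 of 4 libraries, and only the last 2 ranges overlapped. Phox2a went from 505, 507, 1243 and 1117 to 288, 301, 795 and 692 and 164, 199, 575 and 352 CPM and Neurog1 from 106, 77.4, 338 and 301 to 72.4, 68.5, 182 and 223 and 31.8, 31.6, 109.6 and 86.6 CPM, in both cases lower at each step in 4 of 4 libraries. Neurod1 showed no such order, with 585, 726, 742 and 926, then 770.1, 772, 1060.3 and 1180.1, then 498, 663, 1032 and 887 CPM.

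**Figure D2:**
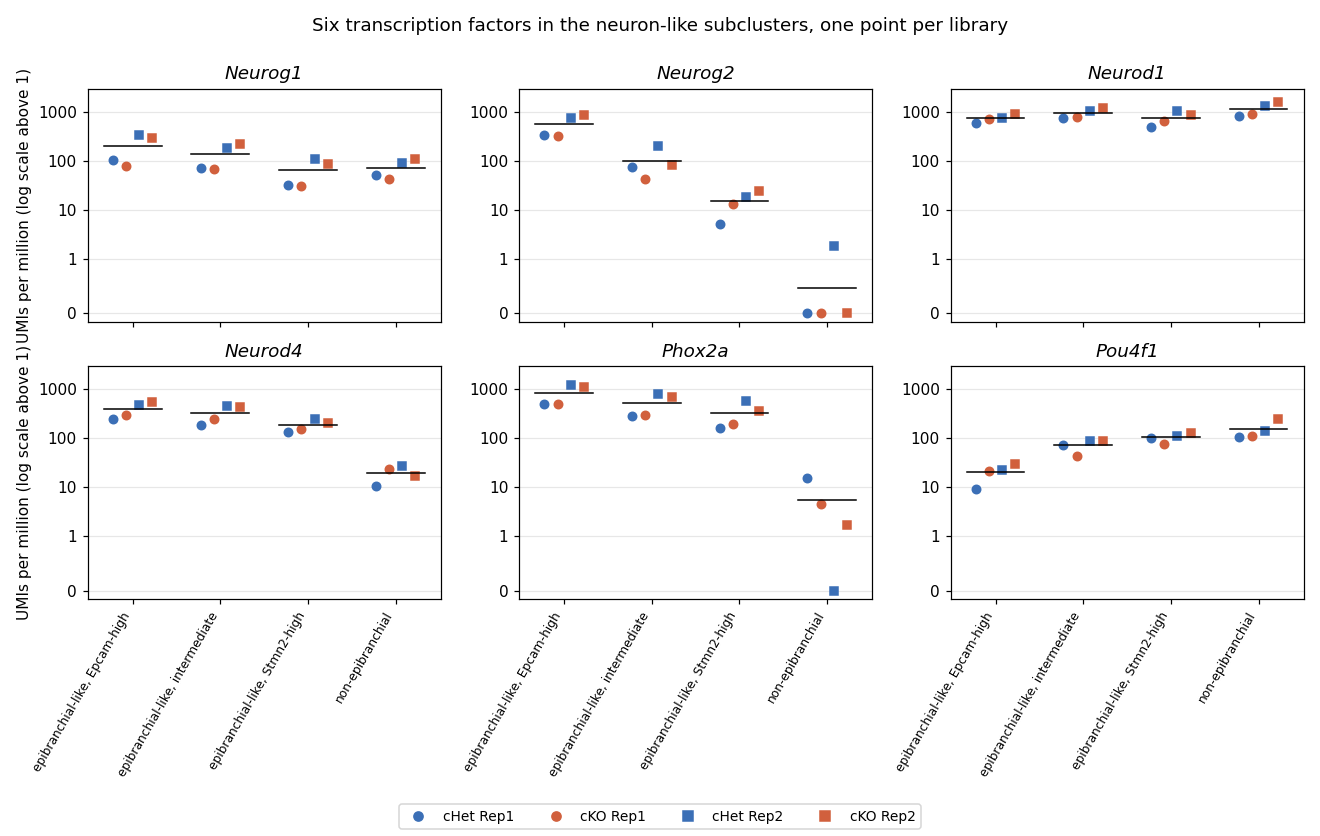
CPM of the 6 genes (vertical axes, logarithmic above 1) in the 3 epibranchial-like subclusters and the non-epibranchial subcluster, with 1 point per library (circles Rep1, squares Rep2, blue cHet, orange cKO) and a bar at the mean. Neurog2 is lower at every step from Epcam-high to non-epibranchial cells in 4 of 4 libraries, Pou4f1 is highest in non-epibranchial cells in each, and Neurod1 lies between 498 and 1562.

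Otic-like cells carried few UMIs of any member, and those they had lay in a small number of cells. Neurog1 was counted at 0, 0, 14.1 and 20.9 CPM, that is in 0 of 99, 0 of 90, 8 of 132 and 20 of 272 cells. The shares were 6.06% in cHet Rep2 (95% Wilson interval 3.10% to 11.5%) and 7.35% in cKO Rep2 (4.81% to 11.1%), and 0 UMIs in Rep1 allow up to 3.03% and 3.33% of cells with a UMI. These intervals and limits cover counting error only. The 28 cells held 153 UMIs, up to 31 in 1 cell, and 18 of them had at least 2.

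Neurod1 was counted at 2.05, 1.68, 8.77 and 26.7 CPM in otic-like cells, with 5, 4, 28 and 138 UMIs in 5, 2, 6 and 14 cells, up to 48 in 1 cell. Pou4f1 stood at 2.05, 3.36, 4.07 and 3.28 CPM, from 43 UMIs in 39 cells (6.58%, against 0.162% of endothelium-like cells, at median depths of 20386 and 19640 UMIs), of which 35 had a single UMI. Other non-neuronal types stood closer than endothelium-like cells, with a Pou4f1 UMI in 25 of 652 endoderm-like cells and in 64 of 3354 BrM-like cells. The endoderm-like cells stood at 1.13, 1.89, 2.31 and 1.9 CPM (27 UMIs), a range that overlaps that of the otic-like cells. Within each library the otic-like cells were higher. Phox2a had 29 UMIs in 27 cells, Neurog2 2 UMIs, and Neurod4 0 UMIs in 593 cells, which allows up to 3.03%, 3.33%, 2.27% and 1.10% of cells with a UMI in the 4 libraries. Of the 593 otic-like cells, 489 had no UMI of any member. The otic-like cells of Rep1 also had less Lfng, a modifier of Notch receptors expressed in the neurogenic part of the otic epithelium, than those of Rep2 (9.03, 9.23, 41.7 and 24.9 CPM). Median depths of the otic-like cells were 19681 and 26504 UMIs in Rep1 and 23281 and 18309.5 UMIs in Rep2, so that both Rep1 libraries were deeper than cKO Rep2. Kit and embryos differ together between the replicates and cannot be told apart beside the 0 Neurog1 UMIs in Rep1.

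The 36 otic-like cells of Rep2 with a UMI of Neurog1 or Neurod1 (11 in cHet, 25 in cKO) were set beside the remaining otic-like cells of their library. Dll1 stood at 29.9 and 34.6 CPM (cHet Rep2, cKO Rep2) against 5.19 and 3.61 CPM in the remaining cells, Lfng at 119.7 and 88.8 against 33.6 and 18.7, and Hes6, which promotes neuronal differentiation, at 89.8 and 117 against 35.3 and 28.6 CPM. Eya1, a cofactor of placodal neurogenesis, stood at 702 and 1033 against 630.0 and 624 CPM. Oc90, the major otoconial protein, was lower, at 6.65 and 0 against 75.8 and 82.5 CPM, as were Gbx2, at 6.65 and 4.33 against 22.1 and 25, and Tbx1, at 56.5 and 49.8 against 86.5 and 95 CPM. The values with a UMI rest on 2 and 0 UMIs for Oc90 and on 2 and 2 for Gbx2. Not all otic markers were lower. Pax2 was higher, at 180 and 145 against 89.3 and 76.6 CPM, and Lmx1a was split, at 283 and 208 against 273 and 351 CPM. Stmn2 had no UMI in the 36 cells. In Rep1, 7 otic-like cells (5 in cHet, 2 in cKO) had a UMI of Neurod1, and there Tbx1 ran the other way, at 124 and 204 against 115 and 119.7 CPM (12 and 7 UMIs in the 7 cells), while Eya1 stood at 422 and 788 against 336 and 282 CPM. These cells were chosen by the members' UMIs and come from 1 library each, so no test was made.

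Ectoderm-like cells were the second place of Neurog2 and Phox2a, and by mean level also, though far lower, of Neurog1 and Neurod4. Neurog2 stood at 53.8, 29.6, 103 and 91.6 CPM there and Phox2a at 40.8, 47.3, 76.1 and 66.2 CPM, in 256 and 280 of 1106 cells, with up to 57 and 53 UMIs in 1 cell. Both were found in 151 cells, and 59.0% of cells with Neurog2 had Phox2a, against 15.2% of cells without. Neurog1 stood at 8.65, 4.34, 15.3 and 20.3 CPM in ectoderm-like cells, a range that overlapped that of the otic-like cells. Of 72 ectoderm-like cells with Neurog1, 58 had Neurog2 and 62 had Phox2a. The later genes were scarce, with Neurod1 at 13.1, 11.8, 8.17 and 3.43 CPM, Neurod4 at 1.38, 3.55, 1.84 and 1.33 CPM and Pou4f1 in 26 cells with 1 UMI each.

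Most epibranchial-like neurons had UMIs of several members at once. All 6 were found in 96 of 434 cells and 5 of them in 226. Neurod1 and Phox2a were found together in 96.5% of cells with either (93.4, 94.3, 99.3 and 96.6% by library), Neurod1 and Neurod4 in 94.0% (86.7, 94.3, 98.5 and 93.2%), and Neurog1 and Neurod1 in 84.0% (84.2, 65.7, 93.5 and 83.8%). Neurog1 and Neurog2 were found together in 61.3% of cells with either (60, 56.1, 71.1 and 54.2%). Such shares depend on depth. With each cell thinned to 5000 UMIs, Neurod1 and Phox2a were found together in 83.3% and Neurog1 and Neurog2 in 38.4% of cells with either.

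Neurog2 and Pou4f1 were the pair found together least often, in 28.9% of cells with either (21.2, 29.2, 34.4 and 27% by library). Pou4f1 was found in 41.4% of the cells with Neurog2 and in 69.9% of those without. After thinning, the share was 9.67% of cells with either, and Pou4f1 was found in 13.3% of cells with Neurog2 and in 31.0% of those without. For Neurog1 and Pou4f1 the same shares were 50.3% with and 63.2% without Neurog1, and 20.8% and 25.2% after thinning.

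In non-epibranchial neurons no cell had all 6 members and 46 of 108 had exactly 2. Neurod1 and Pou4f1 were found together in 58.9% of cells with either (61.9, 54.8, 52.2 and 65.6%) and Neurog1 and Neurod1 in 53.7% (45.5, 54.8, 52.2 and 59.4%). Pairs with Phox2a reached at most 10.7%. In otic-like cells, Neurog1 and Neurod1 were found together in 12 of the 43 cells with either, in 42.9% of cells with Neurog1 and 2.65% of cells without.

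**Figure D3:**
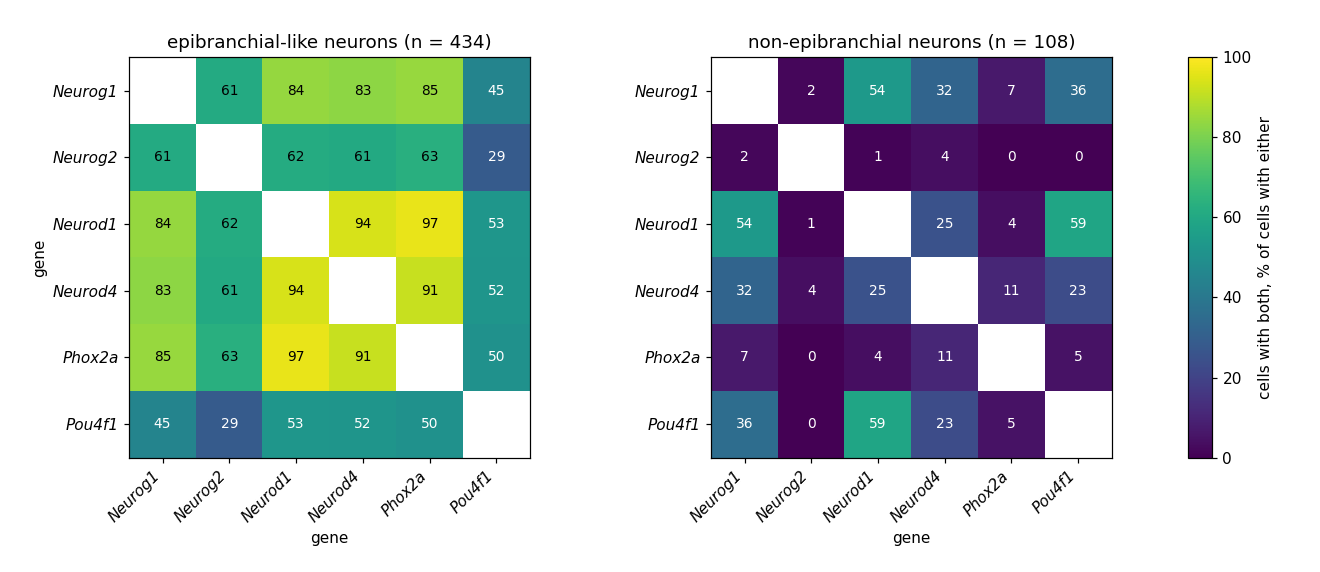
Share of cells with a UMI of both genes among cells with a UMI of either, in percent and rounded to whole numbers, for each pair of members in epibranchial-like (left, n = 434) and non-epibranchial (right, n = 108) neuron-like cells of all 4 libraries. Neurod1, Neurod4 and Phox2a form the pairs above 90% on the left, where Neurog2 with Pou4f1 is lowest, and pairs with Neurog2 or Phox2a reach at most 10.7% on the right.

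The genes around each member were compared between epibranchial-like cells with and without its UMI, after each cell was thinned to 5000 UMIs. Cells with Neurog2 had more Epcam, at 309, 184, 188 and 368 CPM against 86.4, 109, 69 and 70.3 in cells without, and more Dll1, at 42.4, 32, 37.5 and 63.2 against 4.55, 4.35, 13.8 and 15.4 CPM. They had less Tubb3, a neuronal tubulin, at 412, 824, 1868 and 1035 against 1091, 1039, 3414 and 3092 CPM. The sum of the 11 neuron markers was 2055, 2848, 4585 and 3888 against 3509, 3543, 7624 and 8182 CPM. The direction was the same in 4 of 4 libraries for each of these measures. In Rep1 the Dll1 values rest on few UMIs after thinning, most of all in cells without Neurog2. Cells were chosen here by a UMI of the member, and no test was made.

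Cells with Pou4f1 went the other way, with Tubb3 at 1025, 1182, 3533 and 3209 CPM against 774, 923, 2159 and 1903, Epcam at 25, 109, 22.2 and 75.6 against 200, 140, 178 and 233, and the neuron markers at 3625, 4382, 7600 and 8778 against 2800, 3100, 5249 and 5546 CPM, each in 4 of 4 libraries. The Epcam values of cells with Pou4f1 rest on very few UMIs in both cHet libraries. In non-epibranchial cells, Tubb3 stood at 525, 711, 1822 and 1862 CPM with Pou4f1 and at 200, 173, 1057 and 738 without. For Neurog1, Tubb3 stood at 733, 962, 2335 and 1957 CPM with and 836, 964, 2819 and 2738 without, which in cKO Rep1 is nearly the same. The proliferation list (5 genes) was higher with Neurog2 in 3 of 4 libraries, with 1279, 840, 1720 and 1144 against 868, 917, 1193 and 960.4 CPM.

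**Figure D4:**
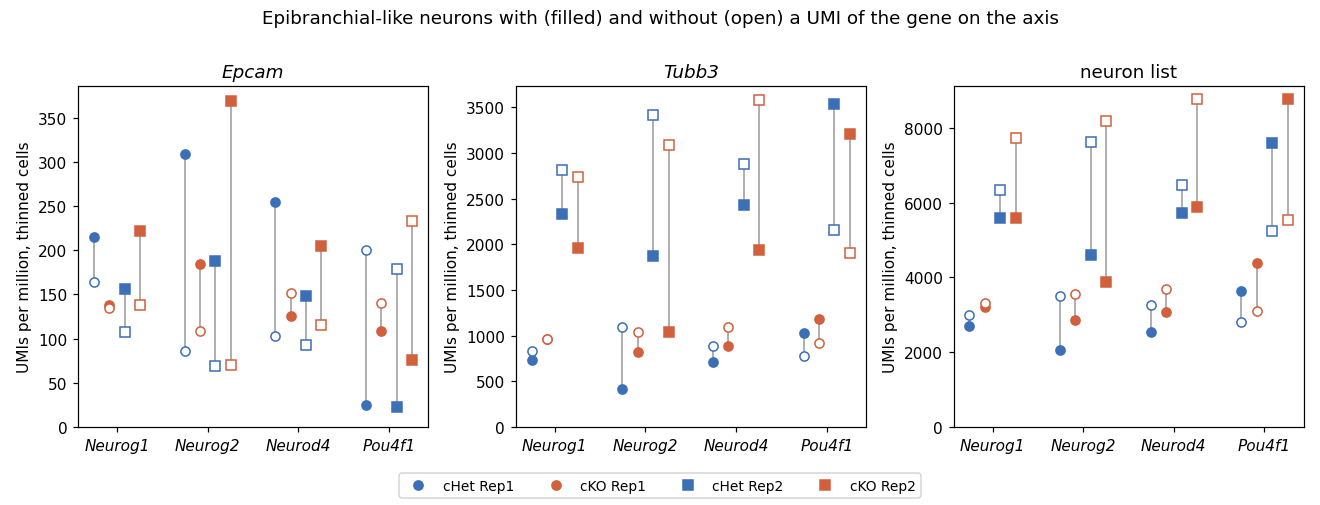
CPM of Epcam, of Tubb3 and of the sum of the 11 neuron markers (vertical axes, from 0) in epibranchial-like cells thinned to 5000 UMIs, with (filled) or without (open) a UMI of the gene named on the horizontal axis, joined within each library. Cells with Neurog2 lie higher for Epcam and lower for Tubb3 and the neuron markers in 4 of 4 libraries, and cells with Pou4f1 the reverse.

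The question of the genotype comparison was whether the members differ after loss of Kmt2d, a histone methyltransferase that marks enhancers. In neuron-like cells, edgeR's quasi-likelihood test on the UMIs summed per library, with the replicate as a block, called no gene of 12130 at a Benjamini-Hochberg adjusted p under 0.05 (0% of genes tested, 557 at an unadjusted p under 0.05, and 4 called by DESeq2). None of the 6 members was called. Log2 fold changes are cKO minus cHet ± SE, and those of single replicates are differences of log2(CPM + 5). With 2 libraries per genotype and the block, 1 residual degree of freedom is left, so calls depend much on the spread borrowed from other genes.

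The neurogenins were level or lower in cKO. Neurog1 differed by -0.05 ± 0.09 (adjusted p = 1.00 by edgeR), and Neurog2 by -0.50 ± 0.09 (edgeR adjusted p = 0.483), with -0.58 in Rep1 and -0.42 in Rep2. Without the subcluster that came mostly from cHet Rep1, the Neurog2 value was -0.63 (edgeR adjusted p = 0.0433) and 39 genes were called, a count whose share of genes tested is not given here. Phox2a differed by -0.22 ± 0.12 and Neurod4 by 0.07 ± 0.14 (edgeR adjusted p = 1.00 for both), and the replicates of each had opposite signs.

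Neurod1 and Pou4f1 were higher in cKO in both replicates but were not called. Neurod1 differed by 0.43 ± 0.10 (edgeR adjusted p = 0.69, 0.59 in Rep1 and 0.24 in Rep2) and Pou4f1 by 0.53 ± 0.12 (edgeR adjusted p = 0.597, 0.57 and 0.40). Without the subcluster held mostly by cHet Rep1, the values were 0.21 for Neurod1, 0.40 for Pou4f1, -0.23 for Neurog1 and -0.39 for Phox2a (edgeR adjusted p of 0.481, 0.443, 0.883 and 0.0511). The kinds of neuron were not mixed alike in the libraries: the epibranchial-like cells were 77 of 177, 71 of 117, 138 of 167 and 148 of 198 neuron-like cells.

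Within the epibranchial-like cells, 50 of 11180 genes were called (0.447%), 45 of them higher in cKO. Neurog2 was the one member called, at -0.53 ± 0.11 (edgeR adjusted p = 0.0414), with -0.75 in Rep1 and -0.35 in Rep2. Its levels in each library are those given above, lower in the cKO than in the cHet library of either replicate, while the 2 replicates differed by more than the genotypes did. The call was lost under every alternative but one (adjusted p from 0.000297 with no filter on low counts to 1.00), without each of the 4 libraries in turn included, and the value stayed below 0, from -1.09 to -0.09.

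The other members were not called in epibranchial-like cells: Neurog1 differed by -0.23 ± 0.12, Phox2a by -0.27 ± 0.09, Neurod1 by 0.18 ± 0.08, Neurod4 by 0.05 ± 0.10 and Pou4f1 by 0.20 ± 0.16. The neuron markers were higher in cKO in both replicates, at 2455, 3328, 5898 and 6672 CPM in sum, and the epithelium list (5 genes) stood at 244, 141, 219 and 231 CPM. The mix of subclusters differed too, with Epcam-high cells 46 of 77, 27 of 71, 56 of 138 and 52 of 148 and Stmn2-high cells 10, 8, 15 and 33, and the part of that mix in the Neurog2 value was not tested. The motor neuron list (6 genes) stood at 75.3, 96.7, 129.7 and 115 CPM in sum in epibranchial-like cells, with Mnx1 at 0 in 4 of 4 libraries and Lhx3 at 0 in 3 of 4, with counts in cHet Rep1. Each of the 3 epibranchial-like subclusters passed 3 of the 6 motor neuron markers. Isl2, a LIM homeodomain factor gene of motor and sensory neurons, stood at 24.9, 37.4, 62.7 and 55.9 CPM, the acetylcholine synthesis gene Chat at 31.3, 35.3, 40.8 and 36.4 CPM and the vesicular acetylcholine transporter gene Slc18a3 at 17.5, 22.9, 25.3 and 19.2 CPM. Their part in the members' values was not tested.

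The 2 larger subclusters were then fitted on their own, a choice made after the levels by subcluster had been seen. In Epcam-high cells, 33 of 9004 genes were called (0.367%), and Neurog2 differed by 0.08 ± 0.13 (edgeR adjusted p = 1.00). In intermediate cells, 17 of 9548 genes were called (0.178%), and Neurog2 changed by -1.11 ± 0.18 (edgeR adjusted p = 0.0021), with -0.69 in Rep1 and -1.25 in Rep2. It was found in 9 of 21, 17 of 36, 47 of 67 and 22 of 63 intermediate cells. The call in intermediate cells was lost without the replicate block, with DESeq2 and without any 1 library, with values from -1.55 to -0.40. The difference between the subclusters was not tested. In intermediate cells the neuron markers stood at 3118, 3122, 7259 and 6904 CPM in sum, nearly level in Rep1 and lower in cKO in Rep2. In Epcam-high cells, the list genes called were Shox2, a homeodomain factor gene of sensory neurons (1.06 ± 0.20), Map2, of the dendritic cytoskeleton (0.54 ± 0.14), and Stmn2 (1.78 ± 0.31, 2.46 in Rep1 and 1.05 in Rep2), each higher in cKO. These calls too were lost with no replicate block, with DESeq2, and without cHet Rep1, cKO Rep1 or cKO Rep2. No gene of the lists was called in intermediate cells, members aside.

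In non-epibranchial cells, 18 of 7738 genes were called (0.233%), none of them a member. Neurog2 and Phox2a had too few UMIs to be tested. Pou4f1 differed by 0.48 ± 0.19 (edgeR adjusted p = 0.739, 0.05 in Rep1 and 0.81 in Rep2), and Neurod1 by 0.20 ± 0.10.

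In otic-like cells, 9 of 11105 genes were called (0.081%), 2 of them higher in cKO, and no member was among them. Only Neurod1 and Neurog1 passed the filter on low counts. Neurod1 differed by 1.33 ± 0.37 (edgeR adjusted p = 0.389), with -0.08 in Rep1, where 9 UMIs were counted in all, and 1.20 in Rep2. Neurog1 differed by 0.55 ± 0.34 (edgeR adjusted p = 0.994), and since both Rep1 libraries were at 0 this value rests on Rep2. The difference between the genotype effects in neuron-like and otic-like cells was tested as an interaction, which called 84 of 12804 genes (0.656%). The filter of that fit was passed by Neurog2, Neurod4, Phox2a and Pou4f1 through the neuron-like cells, so it gives no reading for them, and of the other 2 members neither was called. It came to -1.13 for Neurod1 (neuron-like minus otic-like, edgeR adjusted p = 0.0510) and to -0.61 for Neurog1 (edgeR adjusted p = 0.781).

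In ectoderm-like cells no gene of 12743 was called (0% of genes tested, 461 at an unadjusted p under 0.05, and 0 by DESeq2). Neurog2 differed by -0.39 ± 0.15, with -0.77 in Rep1 and -0.16 in Rep2, Phox2a by -0.03 ± 0.13, Neurog1 by 0.04 ± 0.29 and Neurod1 by -0.66 ± 0.31. Summed over all cells, whatever their name, no gene of 20126 was called (0% of genes tested, 1139 at an unadjusted p under 0.05, and 65 by DESeq2). There Phox2a differed by -0.50 ± 0.11 (edgeR adjusted p = 0.588) and Neurog2 by -0.63 ± 0.26 (edgeR adjusted p = 0.882). In these sums fewer cells of a type and less RNA per cell cannot be told apart.

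**Figure D5:**
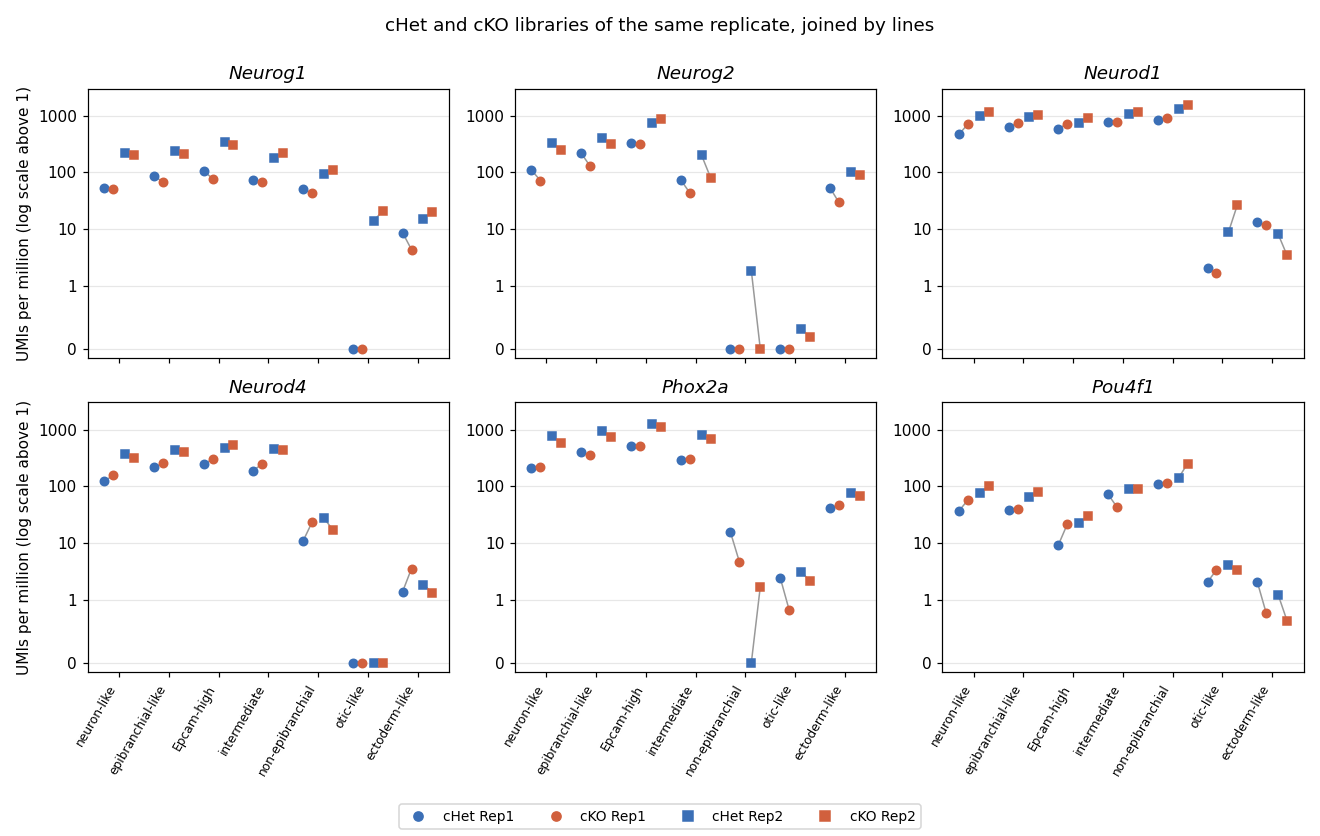
CPM of the 6 genes (vertical axes, logarithmic above 1) in cHet (blue) and cKO (orange) libraries, joined within Rep1 (circles) and Rep2 (squares), for neuron-like, otic-like and ectoderm-like cells and for kinds of neuron. Neurog2 is lower in cKO in both pairs for neuron-like, epibranchial-like, intermediate and ectoderm-like cells. In Epcam-high cells it is slightly lower in cKO in Rep1 and higher in cKO in Rep2. In neuron-like cells both Rep2 libraries lie above both Rep1 libraries for each of the 6 genes, as for the sum of the neuron markers (not drawn).

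Genes that act with the members were followed through 5 lists, read against all genes tested. In neuron-like cells, 6018 of 12130 genes were higher and 6112 lower in cKO, with a median log2 fold change of 0.00, and no gene of any list was called. Of 17 Notch pathway genes tested, 9 were higher and 8 lower (median 0.01), among them the ligand Jag1 at 0.25 ± 0.20, the target Hes5 at -1.09 ± 0.41 and the receptor Notch2 at -0.75 ± 0.23. Of 13 placodal progenitor factors, 7 were higher and 6 lower (median 0.00), with Tbx3 at 0.64 ± 0.15 and Pax2 at -0.37 ± 0.27. Of 16 differentiation factors, 13 were higher (median 0.20), with Myt1 at 0.38 ± 0.22 and Ebf1 at 0.31 ± 0.07.

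Of 13 sensory identity genes in neuron-like cells, 12 were higher in cKO (median 0.29, 5 at an unadjusted p under 0.05), with the neurotrophin receptor Ntrk3 at 1.05 ± 0.21 (edgeR adjusted p = 0.491) and Prdm12, a regulator of nociceptors, at 0.71 ± 0.26. All 20 genes of the cytoskeleton and axon list were higher (median 0.43, 11 at an unadjusted p under 0.05), with Stmn2 at 0.84 ± 0.10 (edgeR adjusted p = 0.173, 0.65 in Rep1 and 0.97 in Rep2) and Stmn4 at 0.78 ± 0.48. The mesenchyme list stood at 312, 159, 29.3 and 34.5 CPM in sum in these cells, highest in cHet Rep1, and its part in these shifts was not tested.

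In epibranchial-like cells, 4 of 20 cytoskeleton and axon genes were called, all higher in cKO, and 19 of 20 were higher (median 0.43, against -0.01 over all genes tested). They were the RNA-binding protein gene Elavl2 (0.53 ± 0.08, edgeR adjusted p = 0.0083), the neurofilament gene Nefm (0.39 ± 0.08, edgeR adjusted p = 0.0414), Stmn2 (0.70 ± 0.13, edgeR adjusted p = 0.022) and Stmn3 (0.71 ± 0.13, edgeR adjusted p = 0.0244). Stmn2 stood at 284, 349, 455 and 943 CPM, above its cHet library in both replicates and most of all in cKO Rep2. Of 12 sensory identity genes 11 were higher, and the neurotrophin receptor Ntrk2 was called (0.95 ± 0.19, edgeR adjusted p = 0.0414), with 16.4, 35.3, 28.4 and 51.8 CPM. No gene of the other 3 lists was called, and of 16 Notch pathway genes 8 were higher. Within the 2 subclusters fitted on their own, the medians of both lists lay closer to 0. In intermediate cells 13 of 18 cytoskeleton and axon genes were higher (median 0.12, 0 called) and 6 of 12 sensory identity genes (median -0.0049, 0 called), and in Epcam-high cells 12 of 15 (median 0.22, 2 called) and 7 of 9 (median 0.15, 1 called). Stmn2-high cells, where Ntrk2 stood at 111, 185, 158 and 178 CPM against 4.94, 22.8, 20.9 and 18.4 in intermediate cells, were 10 of 77, 8 of 71, 15 of 138 and 33 of 148 of the epibranchial-like cells, and the part of this mix in the values of both lists was not tested. As for Neurog2, no gene was called here without the replicate block or without any 1 library.

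In non-epibranchial cells, the LIM homeodomain factor gene Isl1 was called higher in cKO (0.86 ± 0.13, edgeR adjusted p = 0.00163, 231, 497, 553 and 853 CPM), as were Nefl (1.15 ± 0.25, edgeR adjusted p = 0.0367), Nefm (0.76 ± 0.16, edgeR adjusted p = 0.0316) and Stmn2 (0.85 ± 0.16, edgeR adjusted p = 0.00976). These 4 were the list genes called, of 17 cytoskeleton and 8 sensory genes tested, and each call rests on 22 to 32 cells a library. All 4 calls were lost with no replicate block, with DESeq2, in cells thinned to 5000 UMIs, with the members kept in the clustering and without any 1 library.

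In otic-like cells, where 5311 of 11105 genes were higher, 10 of 15 Notch pathway genes, 8 of 13 placodal factors and 7 of 10 cytoskeleton genes were lower in cKO, and 4 of 5 sensory genes were higher. Genes are named here by size only among those with the same sign in both replicates. Notch pathway genes named so were Hey1 (0.34 ± 0.18), Numb (0.08 ± 0.11), Notch3 (-0.21 ± 0.15) and Jag1 (-0.19 ± 0.11). Placodal factors were Tbx3 (0.81 ± 0.15, edgeR adjusted p = 0.109), Gata3, a factor of otic development (0.56 ± 0.11, edgeR adjusted p = 0.14), Sox3 (-0.46 ± 0.37) and Pax8 (-0.34 ± 0.20). The sensory genes were Prdm12 (1.09 ± 0.45) and Ntrk2 (0.55 ± 0.21), and the cytoskeleton and axon genes Map2 (0.55 ± 0.14), Dcc (0.22 ± 0.12), Robo2 (-1.33 ± 0.23, edgeR adjusted p = 0.0737) and Nrp1 (-0.92 ± 0.39). None of these was called.

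Of 7 differentiation factors in otic-like cells 5 were lower, and Ebf2 was called (-2.77 ± 0.38, edgeR adjusted p = 0.0284), with -2.20 in Rep1 and -0.66 in Rep2. The call was lost with no replicate block and in cells thinned to 5000 UMIs, where 0 genes were called, and likewise without cHet Rep1, without cKO Rep1 and without cKO Rep2. The mesenchyme list was at 111, 12.2, 17.5 and 6.57 CPM in otic-like cells, and Col3a1 and Prrx1, genes of mesenchyme, were among the 7 genes called lower. Its part in the Ebf2 value was not tested.

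Across the 29 clusters, the gene whose level was most like that of Neurog1 was Neurod1 (Pearson r = 0.98 of log2(CPM + 5), over 11548 genes compared), followed by Srrm4, a neuronal splicing regulator (0.98), and Pcsk1, a prohormone convertase (0.97). Neurog2 was most like Phox2a (0.96), Abhd15 (0.96) and Hoxb6 (0.95). Phox2a was most like Neurog2 (0.96), Nhlh2, a neuronal helix-loop-helix factor (0.95), and Rasgef1c (0.94). Among the 3 genes most like Neurod1 were Nhlh2 (0.99) and Neurod4 (0.98), and among the 3 most like Neurod4 were the neuronal RNA-binding protein gene Elavl3 (0.99) and Scg3 (0.99). Pou4f1 was most like Chga, which encodes chromogranin A (0.98), Kif19a (0.98) and Insm1, a zinc finger factor of neurogenesis (0.98). The clusters share libraries and 2 of them hold the neurons, so such values are a description.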

How the data were processed

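RNA of single cells was measured in 2 cHet and 2 cKO libraries, grouped by the genotype in the labels. With Cell Ranger the authors made tables of UMIs for each gene in each barcode, and these deposited counts are whole numbers without scaling. The submitters' processing notes name Cell Ranger 8.0.1 and mm10, while the headers of the Rep1 files name an earlier version. The smallest barcode total was 500 or 501 UMIs in the 4 tables.

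Barcodes with at least 3000 genes, at most 10% mitochondrial and 5% haemoglobin UMIs were kept, and predicted doublets were removed by score (4.03% to 5.78% of barcodes, because the automatic threshold marked 0.015% to 1.74%). Cells were clustered on 2000 variable genes without the members (30 components aligned by replicate, 20 neighbours, Leiden resolution 0.8). A cluster was named where at least 3 fixed markers were at least 2-fold over the other cells and found in 10% of its cells, and clusters named for neurons were divided again (resolution 0.5), and a subcluster was called epibranchial-like where at least 3 of 5 markers of that list passed and no library held most of its cells. Counts summed per library were tested with edgeR 4.0.16 (quasi-likelihood, TMM, filterByExpr, Benjamini-Hochberg over all genes tested), with the replicate as a block. The numbers mark the kit and pool, and deviations from the genotype means correlated at 0.701 to 0.815 between libraries of the same number. Standard errors are the fold change divided by the root of the F statistic. The fits were tested on simulated data. DESeq2 1.42.0, other filters, thinning to 5000 UMIs (0 neuron-like and 0 otic-like cells fell below it) and other cell sets were alternatives. Genes named from the lists were those called, otherwise up to 2 with the largest change in either direction of the same sign in both replicates; list genes called in kinds of neuron are named too. A few genes that these rules name are not reported here. The members, lists and groups of neurons were chosen with earlier results of these data known. Promoters came from RefSeq tables, and all 6 members matched. Counting depth was 179454146 to 234726019 UMIs per library, and intervals cover counting error only.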

Additional observations from a re-analysis of the deposited data

How the results depend on the processing

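With the replicate block 1 residual degree of freedom is left, and none with 1 library left out, so those fits were made without the block. Counts of genes called in neuron-like cells (0) became 4 with DESeq2, 175 with no filter on low counts, 18 with at least 1000 genes per cell, 2 with predicted doublets kept, 4 in cells thinned to 5000 UMIs and 39 without the subcluster held mostly by 1 library, and were 0 without each library in turn. In otic-like cells (9) they became 2, 164, 35, 20 and 0 under the first 5 of these, 0 to 8 without 1 library, and 0 with no replicate block. Over all cells (0) they became 65 with DESeq2, 91 with no filter, 3 with 1000 genes and 4 with doublets kept. In ectoderm-like cells (0) they became 41 with no filter, 30 with 1000 genes, 11 with doublets kept, 9 thinned and 1 with the members kept in the clustering. In epibranchial-like cells (50) they became 0 with no replicate block, 3 with DESeq2, 129 with no filter, 0 with 1000 genes, 3 with doublets kept, 23 thinned, 82 with the members kept, and 0 without any 1 library. In non-epibranchial cells (18) they became 0 with no replicate block, DESeq2, thinning, the members kept or 1 library less, and 69 with no filter. In intermediate cells (17) they became 0 with no replicate block, 2 with DESeq2, 31 with no filter and 0 without any 1 library, and in Epcam-high cells (33) 0, 0, 29 and 0 to 4. The interaction (84) called 0 genes with no replicate block. The cause of these shifts was not tested. Of the members, Neurog2 (adjusted p = 0.00054), Neurod1 (0.00028) and Pou4f1 (0.0128) were among the 175 genes called in neuron-like cells by edgeR with no filter. Neurod1 (0.00625) was among the 164 called in otic-like cells by the same fit. The share of genes tested that these counts make up is not given here. In epibranchial-like cells the Neurog2 adjusted p by edgeR was 0.0599 with the members kept, 0.0888 thinned, 0.232 with doublets kept and 0.422 with 1000 genes. The members kept and 1000 genes also changed the cells tested, since a subcluster led by Neurog2 came mostly from cHet Rep1 (84 of 149 and 120 of 198 cells) and left the group, and with the members kept 48 cells with 5 of 6 neural crest and glia markers joined it. Signs turned as follows. Neurod4 in neuron-like cells was -0.00701 with no replicate block, -0.0503 with doublets kept, -0.0474 without the subcluster held mostly by 1 library and -0.16 with all cells of both neuron clusters. Neurog1 in ectoderm-like cells was -0.20 with DESeq2, -0.15 with 1000 genes, -0.0130 with doublets kept and -0.36 thinned, and Phox2a there 0.12 with doublets kept and 0.0177 thinned. Neurod4 in epibranchial-like cells was -0.0687 with 1000 genes and -0.0566 with the members kept, and in non-epibranchial cells -0.26 and -0.76, where Pou4f1 was -0.0208 with doublets kept. Without 1 library at a time, when the kits are no longer balanced, values ran in neuron-like cells from -1.16 to 1.06 for Neurog1, -1.40 to 0.32 for Neurog2, -0.51 to 0.77 for Neurod4 and -0.97 to 0.69 for Phox2a. In otic-like cells they ran from -7.11 to 8.11 for Neurog1, a fitted value with 1 genotype at 0 and no bound, and from -1.42 to 2.54 for Neurod1. They ran from -0.61 to 0.52 for Neurog1 over all cells. In ectoderm-like cells they ran from -1.24 to 0.63 for Neurog1, -1.18 to 0.11 for Neurog2, -1.84 to 0.29 for Neurod1 and -0.25 to 0.30 for Phox2a. In epibranchial-like cells they ran from -1.07 to 0.46 for Neurog1, -0.27 to 0.43 for Neurod4, -0.73 to 0.26 for Phox2a and -0.20 to 0.48 for Pou4f1, and in non-epibranchial cells from -0.53 to 0.49 for Neurog1, -0.0452 to 0.43 for Neurod1 and -0.26 to 0.81 for Neurod4. In Epcam-high cells Neurog2 ran from -0.53 to 0.59. Shares of cells with a UMI and co-detection moved with thinning and stayed within 1 SD between libraries with doublets kept or the members kept.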

Other observations

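Neurog1 was also counted outside the named types. Unnamed cells held 388 of its 3275 UMIs (11.8%), the largest unnamed cluster (4093 cells) 231 of them, with levels of 0.929, 1.91, 1.70 and 6.50 CPM in the library order used above. That cluster was led by Pcdh9, Galntl6 and Lingo2 and reached 2 of 5 mesenchyme markers. The other members had 35 UMIs (Neurog2), 319 (Neurod1), 43 (Neurod4), 149 (Phox2a) and 48 (Pou4f1) in all unnamed cells.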
